A study of Mus musculus with 21 samples.

Results

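Keratins are the intermediate filament proteins of epithelia. Their genes fall into a type I class of acidic proteins and a type II class of basic to neutral proteins, and a filament is built from pairs that hold 1 protein of each class. Simple epithelia carry chiefly KRT8 with KRT18, along with KRT7, KRT19, KRT20 and KRT23 in particular organs, whereas the basal layer of stratified epithelia is known for KRT5 with KRT14 and the layers above it for KRT1 with KRT10. Another group of keratins forms the hair shaft and the root sheaths around it. In the postnatal testis the Sertoli cells, which surround the germ cells, are known for vimentin, not keratin, as their main filament of this kind. RNA of the keratin family was examined here in early meiotic germ cells, together with the cell types that an enriched preparation can still hold.

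The keratin genes were the rows of the RNA-seq table whose symbol is Krt followed by a number and at most 1 letter, with the keratin-associated proteins left out. There were 50 of them among 37620 genes, 28 of type I and 22 of type II. The RNA came from germ cells enriched by collagenase and trypsin digestion from testes of C57BL/6J (B6) males at 12 dpp (days post-partum), labelled spermatocytes, and no mutation or treatment was applied in any group. Each of the 12 libraries carries 1 of 4 sample numbers (186wt, 343wt, 444wt or 456wt), 3 libraries to a number, and these numbers are the only groups compared. The methods of the study describe RNA from 4 replicates of germ cells, and whether a replicate was 1 mouse or a pool is not given in the sources used here. The 3 libraries of a number may thus come from 1 RNA, so p-values set the 4 samples against the spread between libraries of a number, which may be technical. Other samples of the series, on PRDM9 binding and histone marks, were not analysed here.

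Values are FPKM, fragments per kilobase of transcript and per M (mega) of mapped fragments, and the 3 libraries of a number were averaged before a mean ± SD over the 4 numbers was taken. The libraries held an estimated 12.9 to 18 M fragments. The label was checked against marker lists: all 9 meiotic genes measured, among them Stra8 at 103 ± 29.3 FPKM, and all 8 genes of spermatogonia were above 1 FPKM in the mean, but so were all 9 of the Sertoli cell, with Clu at 1844 ± 574 FPKM. The preparations were therefore germ cells together with much Sertoli cell RNA, and genes of peritubular myoid cells, Leydig cells, endothelium and macrophages were measured too.

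Keratin RNA was scarce. Taking a mean of at least 0.1 FPKM as detected, 14 of the 50 keratins (28.0%) were detected, against 55.3% of all genes in the table and 74.2% of its 22337 protein-coding genes. The median keratin stood at 0.0308 FPKM, beside 0.195 FPKM for all genes and 3.01 FPKM for protein-coding genes. A single keratin, Krt10, passed 1 FPKM (2% of the family, against 38.1% of all genes). Of the 36 keratins below 0.1 FPKM, 25 had a value above 0 in at least 1 library. The other 11 were listed at 0 in every library: Krt13, Krt16, Krt32, Krt33a, Krt33b, Krt34, Krt35, Krt71, Krt74, Krt76 and Krt82. That is 22% of the family, against 27.7% of all genes and 12.2% of protein-coding genes. At the summed depth of the 12 libraries a count of 0 allows these 11 at most 0.00706 to 0.0108 FPKM, a limit that covers counting error only.

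The low level is plain beside the other filament genes of the same libraries. All keratins together summed to 6.23 FPKM in 186wt, 6.41 in 343wt, 9.40 in 444wt and 11.4 in 456wt. Vim, which encodes vimentin, stood alone at 341, 371, 221 and 288 FPKM in the same order, 36.5 times the keratin sum in the mean. Of 12 other cytoplasmic intermediate filament genes 11 were detected, against 55.3% of all genes. After Vim the highest were Nes (nestin) at 8.80 ± 2.16 FPKM and Des (desmin) at 7.85 ± 3.58 FPKM. Both were above Krt10, the highest keratin.

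The sequences at the starts of the keratins on which the account turns are shown here, because a letter pattern was common among keratin starts. The 2 highest members of each type are given, with Krt18 as the filament partner of Krt8, and Krt7. Each run of 120 bases goes from 100 bases before the annotated start of the longest transcript to 20 bases after it, on NCBI build 37 (GENCODE M1), 5′ to 3′ on the strand of the gene. Capitals mark the letters TATAAA.
Krt10, chr11:99250659-99250778, minus strand: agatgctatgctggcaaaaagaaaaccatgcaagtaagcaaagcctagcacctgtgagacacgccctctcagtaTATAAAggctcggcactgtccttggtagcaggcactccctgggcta
Krt19, chr11:100007415-100007534, minus strand: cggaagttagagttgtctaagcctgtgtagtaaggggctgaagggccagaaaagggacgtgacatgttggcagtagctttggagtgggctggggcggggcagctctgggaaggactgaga
Krt79, chr15:101770736-101770855, minus strand: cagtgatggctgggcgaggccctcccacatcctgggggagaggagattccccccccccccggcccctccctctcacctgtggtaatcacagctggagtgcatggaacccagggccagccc
Krt8, chr15:101834754-101834873, minus strand: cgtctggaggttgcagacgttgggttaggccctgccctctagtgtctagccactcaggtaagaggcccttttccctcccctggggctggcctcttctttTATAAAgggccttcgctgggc
Krt18, chr15:101858547-101858666, plus strand: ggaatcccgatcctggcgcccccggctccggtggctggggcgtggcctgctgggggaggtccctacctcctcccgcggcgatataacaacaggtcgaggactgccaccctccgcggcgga
Krt7, chr15:101242733-101242852, plus strand: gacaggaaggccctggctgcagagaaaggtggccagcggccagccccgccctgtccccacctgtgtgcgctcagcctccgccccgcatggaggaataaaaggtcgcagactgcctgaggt

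The TATAAA letters were found on the gene's own strand in 23 of the 50 keratin windows, beside 4.88% of the 22380 protein-coding windows of the same length (24 keratins and 6.56% on either strand). In 16 of the 23 the match began 40 to 20 bases before the annotated start, as in Krt10, where it began at −26. The match in Krt8 began at −1, at the annotated start itself. The letters GGGCGG, on either strand, were in 6 keratin windows, Krt19 and Krt7 among them, and in 33.9% of all protein-coding windows. Detection did not follow the TATAAA letters closely, with 6 of the 14 detected keratins and 17 of the other 36 holding them. A match describes the letters of the window and is not a measured site.

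Genes of simple epithelia were the class detected as a whole. All 6 of them (Krt19, Krt18, Krt8, Krt23, Krt20 and Krt7) passed 0.1 FPKM, against 5 of 21 keratins of stratified epithelia, 1 of 8 of the follicle sheaths and 1 of 14 of the hair shaft. The class medians were 0.407, 0.015, 0.0446 and 0.00333 FPKM in that order. Krt222, a keratin-like gene outside these classes, was detected as well. By type, 10 of 28 type I genes and 4 of 22 type II genes were detected. The 14 detected genes held 91.0% of the summed keratin FPKM, and Krt10 alone held 23.3%.

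The order of mean levels began with Krt10 at 1.95 ± 0.160 FPKM (SD, n = 4). Krt10 is the type I keratin of differentiating epidermis, and it varied little, with means of 2.06, 1.72, 2.06 and 1.94 FPKM in 186wt, 343wt, 444wt and 456wt. Its usual partner Krt1 stood at 0.0117 ± 0.00577 FPKM and Krt2, another type II keratin of those layers, at 0.0025 FPKM, so the highest keratin was read almost without the type II genes it pairs with in skin. Krt10 lies at chr11:99246568-99250678 on the minus strand, and the noncoding gene Gm11940 (0.605 FPKM) overlaps it on the plus strand. A strand setting is not given in the sources used here, so reads of the overlapping pair cannot be told apart. The same holds for Krt12 and A830036E02Rik (0.283 FPKM).

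Krt19, a type I keratin of simple epithelia that needs no fixed partner, followed at 0.765 ± 0.779 FPKM. Krt24, a type I keratin of stratified epithelia, was at 0.740 ± 0.243 FPKM, and Krt79, a type II keratin of the hair follicle opening, at 0.638 ± 0.0590 FPKM. Krt222 was at 0.563 ± 0.158 FPKM. Next came the pair of simple epithelia, Krt18 at 0.502 ± 0.281 FPKM and Krt8 at 0.445 ± 0.283 FPKM. The order went on with Krt27, a keratin of the inner root sheath, at 0.401 ± 0.111 FPKM, then Krt23 at 0.369 ± 0.0781 and Krt20, known from the gut lining, at 0.340 ± 0.143. Krt12, the type I keratin of the cornea, was at 0.332 ± 0.208 FPKM, Krt7 at 0.278 ± 0.280, Krt17, a keratin of skin appendages, at 0.181 ± 0.0709, and Krt83 at 0.115 ± 0.0351.

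Most neighbours in this order could not be separated. Krt10 was above Krt19 in 4 of 4 sample numbers, by 1.61 ± 1.11 on the log2 scale, although in 456wt their means were 1.94 and 1.92 FPKM. Krt18 was above Krt8 in 4 of 4 numbers. For each of the other 11 neighbouring pairs the mean log2 difference was smaller than its SD. Just inside the detection limit was Krt83, with an estimated 36.3 fragments over all libraries, and just outside it was Krt75, a companion layer keratin, at 0.0908 ± 0.0311 FPKM.

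**Figure D1:**
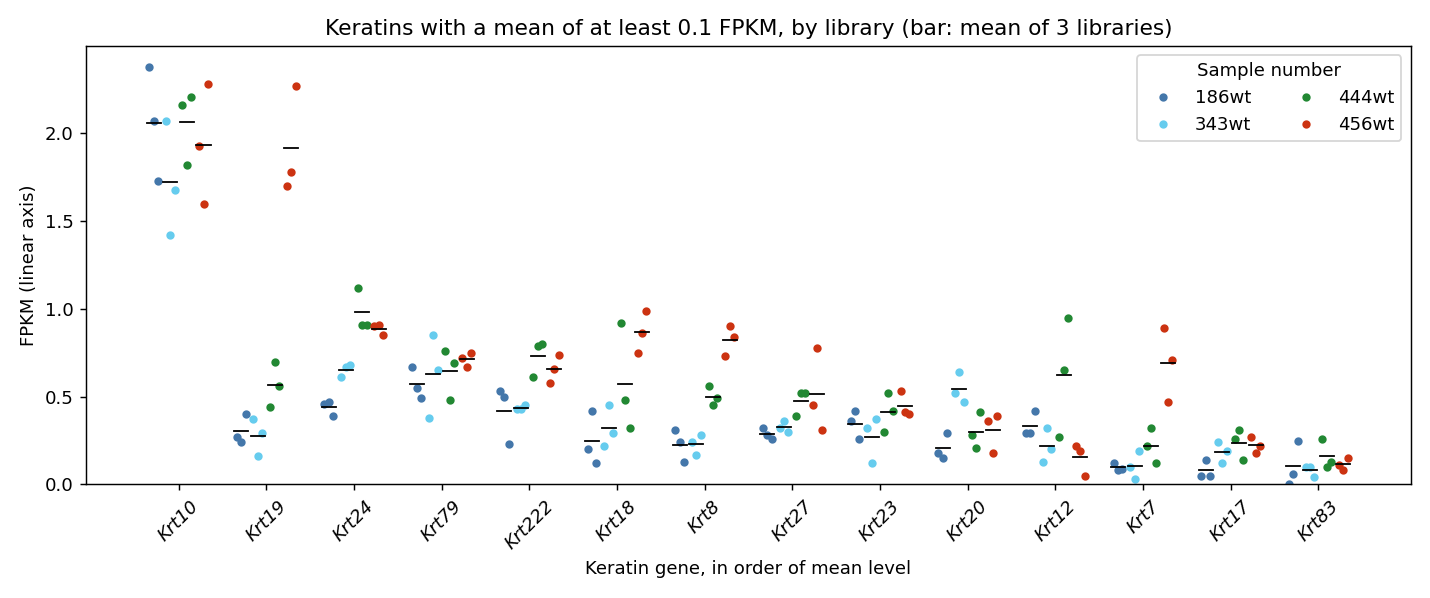
FPKM (linear axis) of the 14 keratins with a mean of at least 0.1 FPKM, in order of mean level; each point is a library, coloured by sample number, and each black bar is the mean of 3 libraries. Krt10 lies between 1.42 and 2.38 FPKM in all 12 libraries, and the 3 libraries of 456wt lie above the other 9 for Krt19, Krt8 and Krt7.

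Type I RNA exceeded type II RNA in every sample number. The log2 ratio of summed type II to summed type I FPKM was −2.17 in 186wt, −2.07 in 343wt, −1.98 in 444wt and −1.63 in 456wt, a mean of −1.96 ± 0.237 that makes type I 3.90 times type II. An exact permutation test of the signs, two-sided, gave p = 0.125, the smallest p that 4 numbers allow. Within the simple epithelial pair the values were closer. The log2 ratio of Krt8 to Krt18 was −0.12, −0.48, −0.20 and −0.07 in the same order, a mean of −0.22 ± 0.180 (exact permutation p = 0.125, two-sided). With the median of the 3 libraries in place of their mean this ratio was −0.0035 (exact permutation p = 0.875), so an excess of Krt18 was not established.

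All 50 keratins lie in 2 clusters. The chromosome 11 cluster, chr11:99094075-100131185, holds 27 type I genes, of which 9 were detected, and the chromosome 15 cluster, chr15:101177875-101862457, holds 23 genes, the 22 of type II and the type I gene Krt18, of which 5 were detected. None of the 22 keratin-associated protein genes inside the first cluster reached 0.1 FPKM (the highest was at 0.0983), nor did any other protein-coding gene inside either cluster. The genes next to the chromosome 11 cluster were far higher. Smarce1, a chromatin remodelling subunit, stood at 98.1 ± 4.88 FPKM on one side and Eif1, a translation initiation factor, at 242 ± 18.2 FPKM on the other. The next genes beyond these, Ccr7 at 0.0283 FPKM and Gast at 0.0133 FPKM, were as low as most keratins.

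Detected keratins were not spread evenly over the clusters. On chromosome 11, 7 of the 10 genes from Krt222 to Krt23 were detected, and then 11 neighbours in a row, from Krt39 to Krt15 and hair shaft genes for the most part, were below 0.1 FPKM (chr11:99375428-99997263). On chromosome 15 the detected genes were Krt7 and Krt83 near one end and Krt79, Krt8 and Krt18 at the other, with 16 undetected neighbours, Krt81 to Krt4, in between (chr15:101289492-101755166). Eif4b, another translation initiation factor, stood at 100 ± 6.07 FPKM beyond Krt18.

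**Figure D2:**
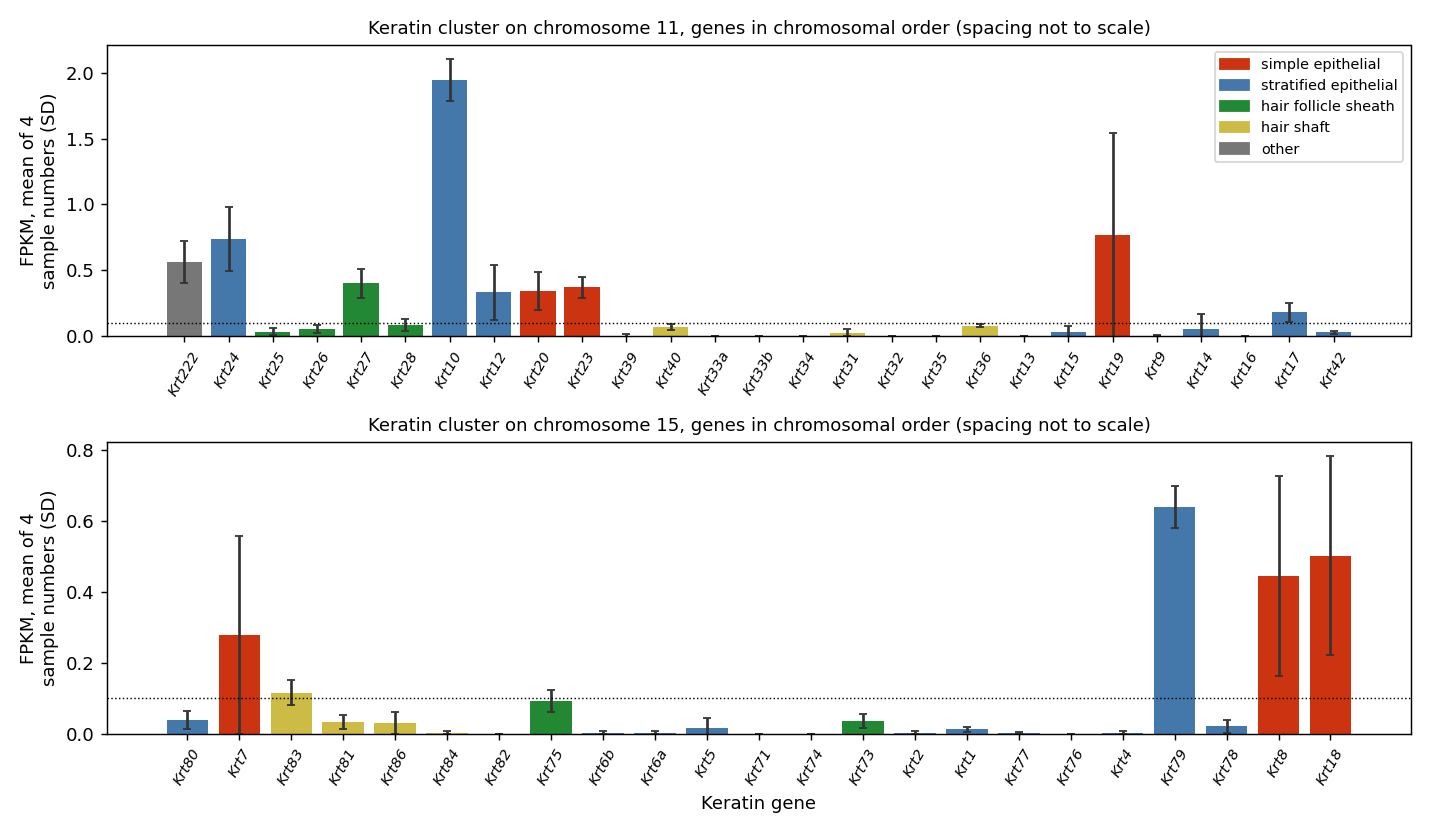
Mean FPKM of each of the 50 keratins (bars, coloured by class, with the SD over 4 sample numbers), in chromosomal order within the clusters of chromosomes 11 and 15, the dotted line marking 0.1 FPKM. The bars above the line are 9 on chromosome 11 and 5 on chromosome 15, and the error bars of Krt19, Krt7, Krt8 and Krt18 are the longest beside their means among the simple epithelial genes.

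The question of the remaining comparison was whether keratin RNA differed between the 4 sample numbers, which are 1 strain and age. The fit used log2 of FPKM with 0.1 added, so that differences of low genes come out smaller than their true ratio, and the test was limma's F-test over all 20795 genes of at least 0.1 FPKM with Benjamini-Hochberg adjustment. It called 5 of the 14 detected keratins (Krt19, Krt8, Krt24, Krt7 and Krt18), in a background where 58.2% of all genes tested were called. Calls were thus no more frequent among the keratins than among all genes. The median difference between the highest and the lowest number was 0.95 on the log2 scale for the 14 keratins and 0.55 for all genes tested. With 1 FPKM added in place of 0.1 these medians were 0.324 and 0.341. The gap thus depended on how low values were handled, and a greater difference of keratins was not established.

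Krt19 had the largest difference among the detected keratins. Its 3 libraries read 0.27, 0.24 and 0.40 FPKM in 186wt, 0.37, 0.16 and 0.29 in 343wt, 0.44, 0.70 and 0.56 in 444wt and 1.70, 1.78 and 2.27 in 456wt. Every library of 456wt was above every other library, and those of 444wt were above those of 186wt and 343wt. The log2 difference between 456wt and 343wt was 2.46 (limma, adjusted p = 3.17e-05).

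Krt8 was also highest in 456wt and next highest in 444wt. It read 0.31, 0.24 and 0.13 FPKM in 186wt, 0.24, 0.17 and 0.28 in 343wt, 0.56, 0.45 and 0.49 in 444wt and 0.73, 0.90 and 0.84 in 456wt, with no overlap between 456wt, 444wt and the other numbers. The log2 difference between 456wt and 186wt was 1.53 (limma, adjusted p = 0.000687). Its partner Krt18 read 0.20, 0.42 and 0.12 FPKM in 186wt, 0.22, 0.45 and 0.29 in 343wt, 0.92, 0.48 and 0.32 in 444wt and 0.75, 0.86 and 0.99 in 456wt. Here 1 library of 444wt reached into the range of 456wt, and the log2 difference between 456wt and 186wt was 1.57 (limma, adjusted p = 0.0185). Without the third library of 456wt the Krt18 call was lost (log2 difference 1.47, limma adjusted p = 0.0594).

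Krt7, the type II keratin of ducts and serous linings, read 0.12, 0.08 and 0.09 FPKM in 186wt, 0.10, 0.03 and 0.19 in 343wt, 0.22, 0.32 and 0.12 in 444wt and 0.89, 0.47 and 0.71 in 456wt. Its libraries of 456wt were again above the other 9, with a log2 difference of 1.97 from 186wt (limma, adjusted p = 0.00209). Krt24 differed in another way. Its libraries read 0.46, 0.47 and 0.39 FPKM in 186wt, 0.61, 0.67 and 0.68 in 343wt, 1.12, 0.91 and 0.91 in 444wt and 0.90, 0.91 and 0.85 in 456wt, so that 444wt and 456wt lay together above 343wt and 343wt above 186wt. Between 444wt and 186wt the log2 difference was 1.00 (limma, adjusted p = 0.0007).

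Of the 14 detected keratins, 3 (Krt19, Krt7 and Krt8) had all libraries of 456wt above the other 9, where 9.18% of the genes tested had this pattern. Krt20 was the 1 keratin with this pattern for 343wt (5.81% of genes), at 0.52, 0.64 and 0.47 FPKM against 0.15 to 0.41 elsewhere, and its difference stayed outside the threshold (log2 difference 1.09, limma adjusted p = 0.0525). No detected keratin had the pattern for 186wt (4.06% of genes) or for 444wt (11.5% of genes). Krt12 (adjusted p = 0.0516) and Krt222 (adjusted p = 0.0605) were also just outside limma's threshold, Krt12 with its highest mean in 444wt, 0.623 FPKM, and its lowest in 456wt, 0.153 FPKM. The other 6 detected keratins had adjusted p-values of 0.11 to 0.763, and Krt10 was among them (log2 difference 0.26, limma adjusted p = 0.518).

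A pair of keratins under the detection limit was read in all 3 libraries of 456wt and in no other library. Krt14, of the basal layer of stratified epithelia, read 0.31, 0.17 and 0.20 FPKM in the 3 libraries of 456wt and 0 in the other 9. Its partner Krt5 read 0.08, 0.06 and 0.04 FPKM in 456wt and likewise 0 in the others. The 456wt values correspond to an estimated 16.6 and 5.7 fragments. The 456wt mean was 5.16 times the level that 3 fragments per sample number would give for Krt14, and 1.78 times for Krt5. These ratios leave out the counting error of the 456wt values themselves, so they are not lower bounds. Krt15, another basal keratin, had a mean of 0.0933 FPKM in 456wt, 0.0333 in 444wt and 0 in the other numbers. Krt14, Krt5 and Krt15 were outside the test, since their means over 4 numbers were below 0.1 FPKM. Krt39, Krt6a, Krt6b and Krt77 were also above 0 in 456wt alone, each in 1 library. How many of all genes under the limit had this pattern was not counted.

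By class, the simple epithelial genes had their highest sum in 456wt. Their summed FPKM was 1.43 in 186wt, 1.74 in 343wt, 2.57 in 444wt and 5.05 in 456wt. For the stratified class the sums were 3.57, 3.47, 4.70 and 4.46 FPKM, for the follicle sheath class 0.47, 0.51, 0.933 and 0.877, and for the hair shaft class 0.34, 0.25, 0.46 and 0.373, so in these classes 444wt and not 456wt was highest.

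The marker lists of other cell types also differed between the numbers, and their part in the keratin values was not tested. In bulk RNA, more cells of a type and more RNA per cell cannot be told apart. The mesothelium list, genes of the serous covering of the testis and other organs, summed to 2.91 FPKM in 186wt, 2.06 in 343wt, 1.60 in 444wt and 9.81 in 456wt. Upk3b, a uroplakin of mesothelium, rose most, from 0.04, 0.0867 and 0.0567 to 3.98 FPKM (log2 difference 4.87). Its mean passed the 0.1 FPKM limit for testing only through 456wt, so its p-value is left out. Msln, which encodes mesothelin, was at 0.15, 0.123, 0.337 and 1.87 FPKM and Upk1b at 0.14, 0.127, 0.153 and 0.963 FPKM in the same order of numbers.

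Of the 6 mesothelium genes 5 were highest in 456wt, the exception being Lrrn4, which was highest in 186wt at 2.38 FPKM, and Muc16 was at 0 in the 3 other numbers and at 0.07 FPKM in 456wt. The list for rete testis, efferent duct and epididymis epithelium was highest in 456wt for 6 of 6 genes. limma called 4 of these 6, and not Pax2 (adjusted p = 0.0779) or Cldn4 (adjusted p = 0.63). The list summed to 54.6, 42.4, 63.2 and 74.9 FPKM, but Epcam, its highest gene, is also known from spermatogonia. Peritubular myoid genes (547, 255, 689 and 1148 FPKM summed) and endothelial genes (16.2, 21.0, 13.4 and 34.2 FPKM) were highest in 456wt for 5 of 5 genes each. Sertoli cell genes were highest in 186wt or 343wt (4382, 4537, 2526 and 2706 FPKM), meiotic genes in 444wt for 8 of 9 (383, 321, 532 and 358 FPKM) and those of spermatogonia in 444wt for 7 of 8 (679, 684, 968 and 838 FPKM). Leydig cell (55.0, 107, 15.8 and 59.9 FPKM) and macrophage genes (11.1, 20.4, 5.58 and 15.4 FPKM) were highest in 343wt for 5 of 5 each. Over all genes tested, 18.8% had their highest mean in 186wt, 17.6% in 343wt, 36.4% in 444wt and 27.6% in 456wt.

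The skin and stratified epithelium list gave a mixed picture. It summed to 4.87, 3.52, 4.17 and 3.42 FPKM, with 456wt lowest, and Ivl (involucrin), Sprr1b and Krtdap were at 0 in all 12 libraries, but 4 of its 15 rows were highest in 456wt, 3 of 6 rows for Flg (filaggrin) and Calml3, each at 0.103 FPKM or less. The sum came mostly from Sbsn (2.09 ± 0.381 FPKM) and Dmkn (1.13 ± 0.276 FPKM). Lor, which encodes loricrin, was at 0.465 ± 0.106 FPKM.

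**Figure D3:**
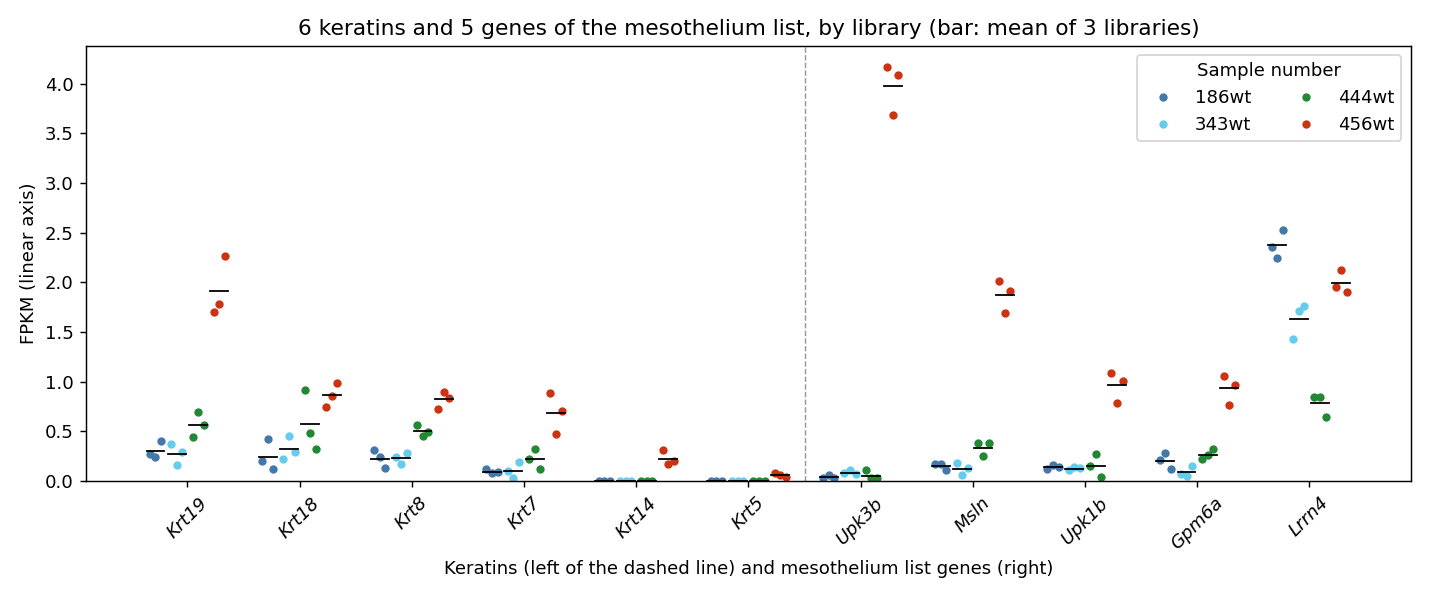
FPKM (linear axis) of 6 keratins, left of the dashed line, and 5 genes of the mesothelium list, right of it; each point is a library, coloured by sample number, and each bar is the mean of 3 libraries. For Krt19, Krt8, Krt7, Krt14, Krt5, Upk3b, Msln, Upk1b and Gpm6a the 3 libraries of 456wt are the highest, while Lrrn4 is highest in 186wt.

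**Figure D4:**
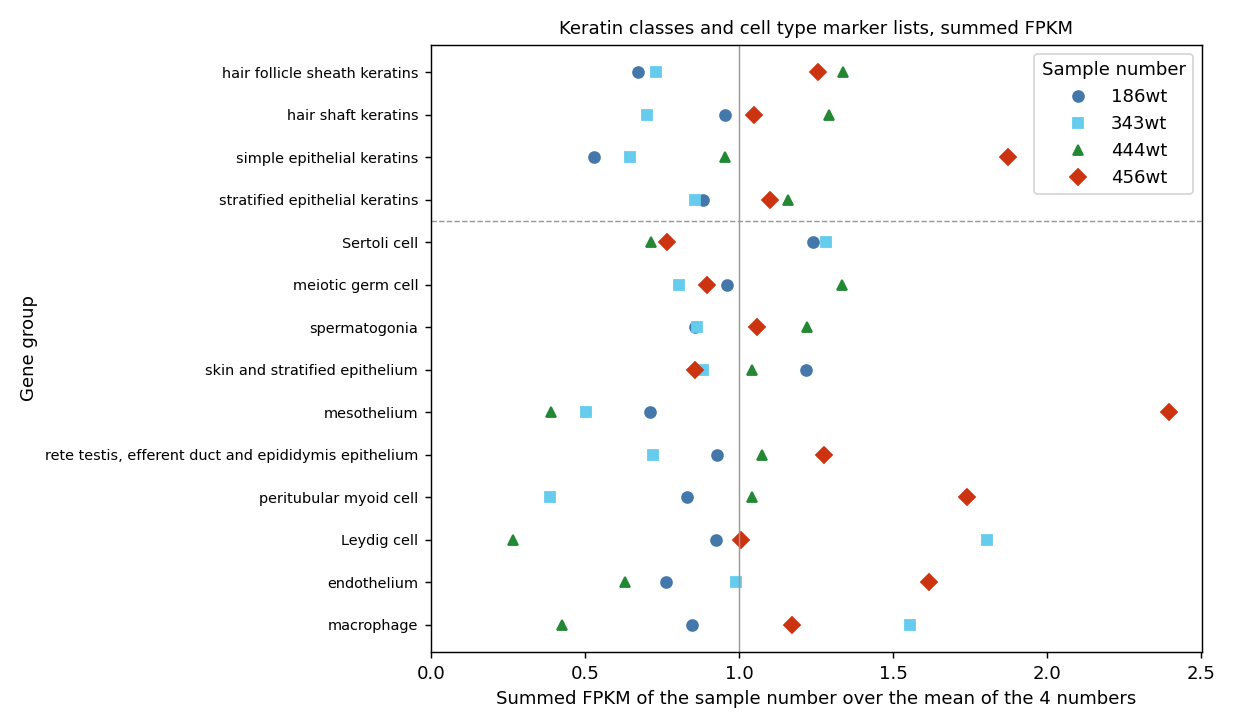
Summed FPKM of 4 keratin classes (above the dashed line) and 10 marker lists (below it) in each sample number, divided by the mean of the 4 numbers, so that 1 is the mean. In 456wt the simple epithelial keratins stand at 1.87 and the stratified keratins at 1.10. Of the lists, mesothelium stands there at 2.40, peritubular myoid cells at 1.74, endothelium at 1.62 and skin at 0.856. In 444wt the simple epithelial keratins stand at 0.953 and the mesothelium list at 0.39.

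Without 456wt, limma called 3 of 14 keratins (Krt24, Krt8 and Krt20), with 50.8% of genes called. Krt19 then had a log2 difference of 0.86 between 444wt and 343wt (adjusted p = 0.0782), Krt7 one of 0.66 (adjusted p = 0.323) and Krt18 one of 0.95 (adjusted p = 0.204). Krt8 stayed within the threshold, with 444wt above 186wt by 0.91 (limma, adjusted p = 0.0432), and so did Krt24 (adjusted p = 0.0034). The calls of Krt19, Krt7 and Krt18 were thus lost without 456wt, although the difference of Krt18 was then no smaller than that of Krt8.

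Genes whose products tie keratin filaments to cell junctions spanned a wide range. All 12 plaque and linker genes in the table were detected (against 55.3% of all genes), 8 of them at 1 FPKM or more (38.1% of all genes). Their median was 4.64 FPKM, and their sum moved little, from 87.2 FPKM in 444wt to 92.7 in 186wt. The highest were Plec (plectin) at 21.3 ± 2.42 FPKM, Jup (plakoglobin) at 19.7 ± 2.57 and Tchp (trichoplein) at 13.0 ± 1.04. Dsp, which encodes desmoplakin, the main desmosomal anchor of keratin, was at 0.438 ± 0.11 FPKM, and with Pkp3 (0.582), Pkp1 (0.373) and Ppl (0.188) it lay in the range of the detected keratins. limma called 10 of the 12, beside 58.2% of all genes, with 4 highest in 456wt (among them Ppl, periplakin, log2 difference 0.98, adjusted p = 0.0461), 3 in 186wt, 2 in 343wt and 1 in 444wt. Of all genes tested, 27.6% had their highest mean in 456wt and 36.4% in 444wt.

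RNA of factors known to govern epithelial genes was also read. Of 12 transcription and splicing factors fixed as a list all were detected, against 55.3% of all genes. At 1 FPKM or more were 8, against 38.1% of all genes. Ehf, with a mean of 0.1025 FPKM, passed the limit only through 456wt (0.207 FPKM, and 0.0733 or less in the other numbers). The highest were Klf4 at 34.0 ± 8.53 FPKM, the splicing factor Esrp1 at 22.2 ± 5.59 and Grhl1 at 6.52 ± 1.55. Trp63, which encodes the p63 factor of stratified epithelia, was at 0.504 ± 0.224 FPKM and highest in 456wt, at 0.817 FPKM (log2 difference from 343wt 1.23, limma adjusted p = 0.0036). Of the 12, limma called 8, a share near the 58.2% of all genes, with 4 highest in 444wt, 3 in 456wt and 1 in 343wt. Among the other intermediate filament genes 8 of 11 tested were called (58.2% of all genes), 5 of them highest in 444wt. Des, the muscle filament gene, was highest in 456wt, at 13.1 FPKM against 5.31 to 6.84 in the others.

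Several symbols of the table have changed since. By the RefSeq synonyms of a later assembly (GRCm38), the row named Krt83 (ENSMUSG00000047641) matches Krt87. The row named Krt86, at 0.03 FPKM, matches Krt1, a symbol that another row carries, and 5430421N21Rik matches both Krt86 and Krt83. A shared synonym does not settle which gene a row holds. Rows that are now named keratins but carried other symbols, and so fell outside the rule, were 5430421N21Rik, 1700011A15Rik, 4732456N10Rik and Krt72-ps, at 0.0342, 0.00667, 0.0183 and 0.02 FPKM, all below the detection limit. Near-identical members such as Krt6a and Krt6b or Krt33a and Krt33b share reads that RSEM divides among them, and their values are less certain for it. The same would hold for pseudogene copies of Krt8 and Krt18.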

How the data were processed

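RNA-seq of enriched B6 germ cells at 12 dpp was analysed as 4 sample numbers of 3 libraries each. The authors aligned 100-bp paired-end reads to the NCBI build 37 transcriptome with Bowtie 0.12.9 and computed FPKM with RSEM 1.2.8. The deposited FPKM are rounded to 2 decimals and come without counts. Every column of values was used. The members, gene lists and tests were chosen with earlier results of these data known.

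Libraries of 1 number were averaged before any mean over numbers, and 0.1 FPKM was taken as the detection limit. For differences between numbers, limma 3.58.1 (R 4.3.3) was fitted with a trend to log2(FPKM + 0.1) of all genes at or above that limit, with Benjamini-Hochberg adjustment. Ratios over the 4 numbers were tested by exact permutation of signs. Python 3.11.15, pandas 2.3.3 and numpy 2.4.6 gave the other values. The rule for named genes took every keratin of at least 0.1 FPKM and the highest genes of each list. Krt14, Krt5, Krt15, Krt75 and single genes of the other lists were named after their values were seen. Proteins could not be shown, and starts are shown in their place.

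The depth was estimated from the steps between low FPKM values over 1797 genes, at 12.9 to 18 M (mega) fragments per library. In 4 draws of simulated FPKM with depths of 8.12 to 29.7 M fragments its largest error was 0.365%, and the limma fit was tested on simulated data too. The draws followed the same length model that the estimate fits, so this error does not cover reads that RSEM divided among genes. Libraries of the same number correlated at 0.976 to 0.982 across genes, and those of different numbers at 0.947 to 0.970. The 3 libraries of a number differed by more than counting noise (chi-square per degree of freedom 1.45 to 1.57). The fragments behind this value were estimated from rounded FPKM of single-transcript genes, and reads that RSEM divided can add to it. It thus cannot tell whether the 3 libraries share 1 RNA or are 1 library sequenced again. Alternatives were other pseudocounts, filters, scalings and detection limits, medians in place of means, a replicate block, and each library or number left out.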

Additional observations from a re-analysis of the deposited data

Results flagged for a closer look

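All 50 keratins, the genes of the lists and the sums and ratios over them, 169 values that were not the same in every sample number, were examined over the 4 numbers. In 22 of them 1 number lay apart from the rest by more than Dixon's 95% critical value, 15 times 456wt and 7 times 444wt, each time as the highest. Chance passes this limit in about 1 group in 20, but that rate does not hold here, since a value at 0 in 3 numbers passes it at any level (12 of the 22) and genes of a list and its sum are not independent.

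Of the keratins, Krt14 at 0.227 FPKM and Krt5 at 0.06 FPKM in 456wt were read in all 3 of its libraries. The others rest on 1 library each: Krt39 at 0.0167, Krt6a and Krt6b at 0.01 and Krt77 at 0.00667 FPKM in 456wt, and Krt84, Krt9, Krt4 and Krt2 at 0.01 FPKM in 444wt. Krt19, Krt8 and Krt7 were within the limit.

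Of the lists, the mesothelium sum was apart at 9.81 FPKM in 456wt (2.91 in the next number), with its genes Upk3b at 3.98 FPKM (0.0867 in the next), Msln at 1.87 (0.337), Upk1b at 0.963 (0.153) and Muc16 at 0.07 (0). In 456wt the others were Kdr of the endothelium list at 6.48 FPKM (2.81 in the next), the linker gene Pkp4 at 12.9, the epithelial factor Ehf at 0.207 (0.0733) and a Flg row at 0.103 FPKM (0.0167). In 444wt they were the meiotic gene Smc1b at 68.7 FPKM (43.0 in the next), Lypd3 of the skin list at 0.25 (0.0267) and another Flg row at 0.1 FPKM (0).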

How the results depend on the processing

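The count of keratins called different between the 4 sample numbers was 5. That was 5 of 14 tested, with 58.2% of all genes called. It was 8 of 14 with a pseudocount of 1 FPKM (58.4% of genes). With no filter on low values it was 8 of 39 (43.6% of genes), and Krt14, Krt5 and Krt15 entered the test. It was 0 with only genes of at least 1 FPKM tested (77.6% of genes). That last limit leaves 1 keratin, Krt10, whose unadjusted limma p was above 0.05, so 0 keratins had an unadjusted p under 0.05. With a sample number or a single library left out the count ranged from 3 to 7, the 3 being without 456wt. In those settings 13 to 15 keratins were tested and 47.7% to 56.7% of genes were called. The replicate block, with library number as a term, gave 5 (56.6% of genes). Libraries with the same number did not deviate together (correlations of −0.0648 to 0.128), so the number pairs nothing. Of 307 values of single keratins under these alternatives 289 stayed on their side of the threshold, 4 left it (Krt18 without 456wt and without library 3 of it, Krt19 and Krt7 without 456wt) and 14 (Krt12, Krt20 and Krt222) passed it.

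The count of keratins at or above 0.1 FPKM was 14, or 28.0%, against 55.3% of all genes. It was 39 with any value above 0 FPKM. There 22% of keratins were at 0 in every library, against 27.7% of all genes and 12.2% of protein-coding genes. At 1 FPKM it was 1 (2%, against 38.1% of all genes). With a library or number left out it was 13 to 15, beside 20628 to 20849 of all 37620 genes. After rescaling to TPM it was 20, and the share of all genes was not counted there. A limit of 0.1 TPM was looser than 0.1 FPKM in these libraries. The type II to type I ratio stayed between −2.07 and −1.89 on the log2 scale with 1 left out, was −2.00 with library medians and −2.19 without the highest member of each type. The Krt8 to Krt18 ratio moved from −0.32 (without the first library of 186wt) to −0.07 (without its second). Neither ratio can pass a threshold of 0.05 with 4 numbers. Genes near 0.1 FPKM rest on few fragments, 36.3 in all for Krt83.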
